A study of Mus musculus with 9 samples.

Results

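The comparison described here set midbrain dopamine (DA) neurons in which both Dot1l alleles were floxed, Dot1l(fl/fl), against neurons with both alleles intact, Dot1l(+/+). Its members were the libraries whose titles name the knockout or the wild type and that had a count file, 2 Dot1l(fl/fl) and 3 Dot1l(+/+), which made 5 of the 8 libraries with counts and of the 9 samples in the labels. Dot1l(fl/fl) replicate 3 was not analysed here. Embryos were C57/Bl6 mice taken late on embryonic day 15, and every group, the controls included, carried 1 Pitx3-Cre allele and a Rosa-lox-stop-lox-Yfp reporter. Cre was made from the Pitx3 locus, which is active in young post-mitotic DA neurons, so that the same recombination that removed the floxed Dot1l exon also lit the yellow fluorescent protein by which cells were sorted after papain dissociation. Each library came from pooled embryos of a genotype, so that the spread between libraries, and with it every p-value, is a spread between pools. The pools were matched by litter across genotypes according to the methods of the study, but nothing in the sources used here says that equal replicate numbers mark a matched set.

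DOT1L methylates histone H3 at lysine 79, within the body of transcribed genes, where the mark accompanies elongating RNA polymerase II. It works beside elongation factors and is best known from mixed lineage leukaemia, in which it is brought to homeobox genes. In midbrain DA neurons, transcription factors such as Nr4a2, Pitx3, En1 and En2 hold the identity of the cell and act on the genes that make, load and take back dopamine.

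Totals were between 26296897 and 43674673 counts in Dot1l(+/+) and were 18298340 and 13616922 in Dot1l(fl/fl), so that the deleted group was the shallower. A count of 3, which is what a count of 0 still allows, was worth between 0.0687 and 0.22 CPM (counts per library size, scaled alike in every library) across the 5 libraries. Chromosome Y genes took between 9.13e-05% and 0.0174% of counts in Dot1l(+/+) and 0.0068% and 0.0188% in Dot1l(fl/fl), so that the sex makeup of the pools varied within both genotypes. Summed markers of red blood cells were between 13.9 and 18.1 CPM in Dot1l(+/+) and were 17 and 41.3 CPM in Dot1l(fl/fl), and those of astrocytes were between 308.0 and 446.2 CPM against 294.0 and 304.1 CPM. Radial glia and progenitor markers summed to between 582.7 and 685.6 CPM against 540.2 and 571.4 CPM. GABAergic neuron markers summed to between 203.6 and 226.3 CPM against 236.4 and 264.9 CPM. Microglia markers lay between 120.3 and 153.7 CPM against 144.9 and 164.8 CPM. Of these lists Gfap and Helt were at 0 in all libraries, and at an unadjusted p under 0.05 the 2 globin genes Hbb-bs and Hba-a1 of 7 red cell markers, S100b of 5 astrocyte markers and Slc32a1 of 7 GABAergic markers were higher, while Slc1a2 and, of 15 radial glia markers, Lmx1a and Msi1 were lower. Lmx1a is also a gene of DA neuron identity and is counted in that list below, so that it does not mark other cells alone. DA neuron markers summed to between 5831.4 and 6702.5 CPM in Dot1l(+/+) and to 4673.7 and 5651.8 CPM in Dot1l(fl/fl). Of these 10 markers 6 were lower at an unadjusted p under 0.05 and 0 were higher, against 5.03% lower over all genes. The lower markers were Th, Ddc, Slc18a2, Nr4a2, Aldh1a1 and En1. The part of other cells in the results was not tested, and in bulk RNA fewer cells of a type and less RNA per cell cannot be told apart.

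Dot1l, Slc6a3 and Pitx3 did not separate the genotypes. Dot1l was at 105.2, 84.6 and 94.6 CPM in Dot1l(+/+) 1 to 3 and at 64.9 and 99.1 CPM in Dot1l(fl/fl) 1 and 2, with a log2 fold change of -0.21 ± 0.15 (SE) that was -0.55 without Dot1l(fl/fl) 2 and 0.06 without Dot1l(fl/fl) 1. The floxed segment is a single exon, so that a count over the whole gene does not check its deletion. Slc6a3, the dopamine transporter, was at 767.9, 613.4 and 606.9 CPM in Dot1l(+/+) and at 826.0 and 621.5 CPM in Dot1l(fl/fl). Pitx3, the gene that carried Cre, was at 236.2, 226.8 and 188.1 CPM against 237.4 and 192.4 CPM. The cells of both genotypes thus held Slc6a3 and Pitx3 at high levels. Th, the other gene of this check, had a log2 fold change of -0.39 ± 0.10, with both Dot1l(fl/fl) libraries below every control.

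Of 17988 genes tested, 0 had an adjusted p under 0.05 by the quasi-likelihood test of edgeR, so that no gene below is said to have changed. DESeq2 on the same counts called 214 genes, 56 higher (0.969%) and 158 lower (2.73%), which was 3.7% of the 5779 it left in after its own filter on the mean count. At an unadjusted p under 0.05 edgeR found 763 genes higher (4.24%) and 904 lower (5.03%) in Dot1l(fl/fl), together 9.27%. With exon length and GC content fitted as an offset in each library these were 3.01% and 3.71%. Both Dot1l(fl/fl) libraries lay above every Dot1l(+/+) library for 2182 genes (12.1%) and below for 2087 (11.6%). These shares are the background for each group of genes that follows.

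Of the 15 lower genes with the smallest p, the transcription factors among those reported are given first. En2, an Engrailed factor of the midbrain and hindbrain, was at 444.6, 421.1 and 471.8 CPM in Dot1l(+/+) and at 326.9 and 316.2 CPM in Dot1l(fl/fl), which gave -0.47 ± 0.09 (SE) as log2 fold change (edgeR, Benjamini-Hochberg adjusted p = 0.114). For En2, as for all of these 15 genes, the genotypes do not overlap because the choice required it. Zfhx3, a large factor with zinc fingers and homeodomains, was at 212.4, 181.3 and 224.1 CPM against 114.0 and 154.9 CPM, a log2 fold change of -0.62 ± 0.13 that was -0.41 without Dot1l(fl/fl) 1. Pax5, a paired-box factor of the early midbrain and of B cells, was at 25.0, 21.8 and 25.3 CPM against 12.1 and 13 CPM, a log2 fold change of -0.94 ± 0.22. Sox11, an SRY-related factor of immature neurons, was at 562.5, 633.6 and 649.7 CPM against 412.7 and 502.0 CPM. As the choice required, the lowest Dot1l(+/+) library stood above the highest Dot1l(fl/fl) library in each of these 3 genes.

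Kctd12, an auxiliary subunit of GABA-B receptors, had the smallest p of all genes tested. It was at 193.8, 195.5 and 191.1 CPM in Dot1l(+/+) and at 131.0 and 125.4 CPM in Dot1l(fl/fl). The spread within a genotype was a few CPM, against a difference of means of -33.7%. Ina, an intermediate filament of young neurons that overlaps Nt5c2 on the other strand, was at 1380.0, 1351.8 and 1356.6 CPM against 1031.5 and 1085.9 CPM, a log2 fold change of -0.36 ± 0.07. Pak6, a kinase of the p21-activated family, was at 166.1, 149.2 and 147.2 CPM against 111.7 and 103.9 CPM. Larp1, an RNA-binding repressor of ribosomal protein mRNA translation, was at 186.7, 171.5 and 199.8 CPM against 132.3 and 131.6 CPM. Whrn, a scaffold protein of hair cell stereocilia and photoreceptors, was at 110.7, 106.2 and 121.5 CPM against 81.3 and 76.0 CPM. Prrc2b, D630045J12Rik and Mex3a, of which Mex3a encodes an RNA-binding protein, had log2 fold changes of -0.45, -0.53 and -0.55, and that of Mex3a was -0.32 without Dot1l(fl/fl) 1. Ndufs5, a subunit of respiratory complex I, was at 6.72, 8.77 and 11.5 CPM against 2.62 and 3.82 CPM. Ndufs5 has near-identical copies that can share reads, and its value is uncertain.

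Of the 15 higher genes with the smallest p, those for secreted products and ligands are given first. Bdnf, a neurotrophin, was at 19.1, 16.9 and 19.7 CPM in Dot1l(+/+) and at 31.6 and 33.0 CPM in Dot1l(fl/fl), which gave 0.80 ± 0.20 (SE) as log2 fold change (edgeR, Benjamini-Hochberg adjusted p = 0.205). Vgf, a granin-like precursor that neurotrophins induce, was at 55.0, 52.7 and 40.7 CPM against 74.6 and 76.4 CPM. Scg5, the chaperone of prohormone convertase 2, was at 184.0, 221.3 and 163.1 CPM against 339.6 and 265.2 CPM, a log2 fold change of 0.67 ± 0.14. None of these 3 genes overlapped between genotypes, since the choice of the 15 genes required it. Wnt7b, a secreted Wnt ligand, was at 118.3, 98.3 and 112.5 CPM against 175.5 and 145.5 CPM. Its relative Wnt7a was at 15.5, 12.6 and 12.7 CPM against 34.7 and 18.4 CPM, and its log2 fold change of 0.97 was 0.43 without Dot1l(fl/fl) 1. For Wnt7a the Dot1l(fl/fl) libraries thus differed from each other by more than the controls did.

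Chchd2, a mitochondrial protein that also acts in the nucleus, was at 59.1, 52.9 and 50.3 CPM in Dot1l(+/+) and at 85.2 and 84.4 CPM in Dot1l(fl/fl), which gave 0.65 ± 0.12 (SE) as log2 fold change (edgeR, Benjamini-Hochberg adjusted p = 0.0985). Myl12a, a regulatory light chain of non-muscle myosin, was at 18.5, 17.4 and 16.6 CPM against 32.6 and 38.4 CPM. Glo1, the glyoxalase that removes methylglyoxal, was at 20.2, 18.2 and 16.6 CPM against 32.9 and 32.3 CPM. The Dot1l(fl/fl) libraries stood close together for Chchd2 and Glo1. Prkra, an activator of the kinase PKR, and Txndc12, a thioredoxin-like protein of the endoplasmic reticulum that overlaps Kti12, had log2 fold changes of 0.48 and 0.72. Pla2g7, which encodes the secreted hydrolase of platelet-activating factor, was at 2.51, 0.683 and 3.77 CPM against 10.5 and 8.78 CPM. Rps24-ps3, with a log2 fold change of 0.60, is a ribosomal pseudogene, and like Myl12a and Chchd2 it has near-identical copies that can share reads, so that its value is uncertain.

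**Figure D1:**
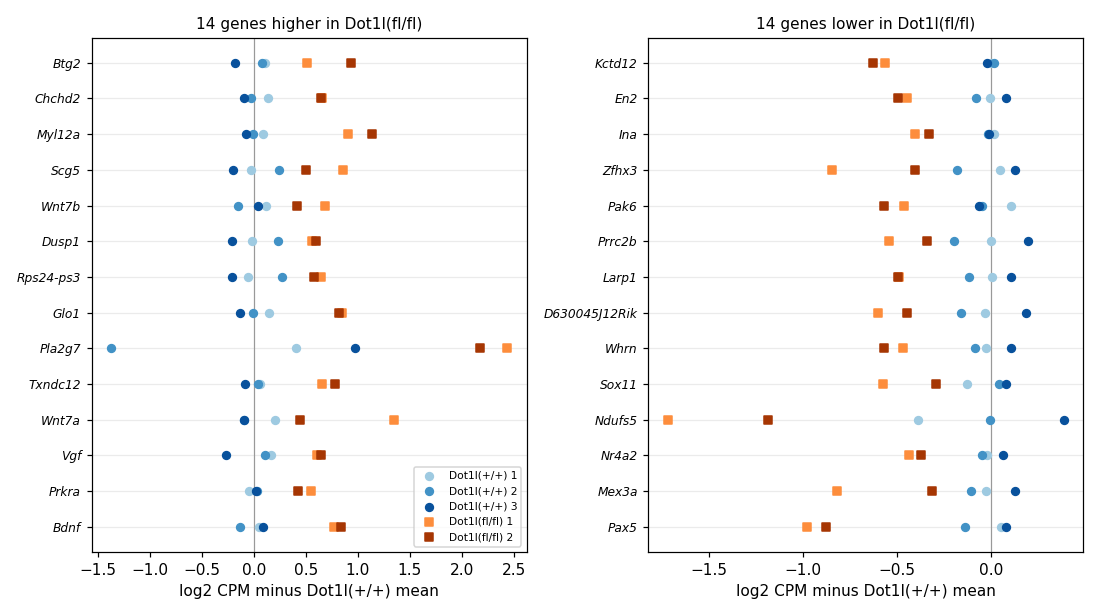
Level of 28 of the 30 genes of smallest p in each of the 5 libraries, as log2 CPM minus the mean of the Dot1l(+/+) libraries (circles, Dot1l(+/+); squares, Dot1l(fl/fl)), with 14 higher genes on the left and 14 lower genes on the right in order of p. The genotypes do not overlap for any of them because the choice required it; the log2 fold changes ran from 0.48 to 2.05 among the higher and from -1.49 to -0.36 among the lower genes.

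The plot of these genes by library shows that most differences were modest. DESeq2 gave an adjusted p under 0.05 for 9 of the 15 higher and 13 of the 15 lower genes. Of 192 genes with a difference of at least 2-fold at an unadjusted p under 0.05, 15 reached a mean of 5 CPM.

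The largest folds belonged to genes of low level, near the limit of what these depths show. Gm5678, a predicted gene, had 280 counts over the Dot1l(+/+) libraries and 1 over the Dot1l(fl/fl) libraries, a ratio of 0.0116 with a 95% exact counting interval from 0.000292 to 0.065. Wnt11, a further Wnt ligand, was at 1.24, 0.0 and 0.0925 CPM in Dot1l(+/+) and at 2.79 and 4.46 CPM in Dot1l(fl/fl). Tuba1c, an alpha-tubulin, was at 1.0, 0.114 and 0.74 CPM against 10.1 and 0.576 CPM. A single library, Dot1l(fl/fl) 1, thus carried the Tuba1c difference, whose log2 fold change was -0.10 without it. Gal3st1, a sulfotransferase of myelin lipids, was at 0.695, 0.797 and 1.3 CPM against 5.08 and 2.45 CPM, and Gpr25, an orphan receptor that overlaps Gm26781 on the other strand, at 0.347, 0.342 and 0.948 CPM against 3.33 and 2.09 CPM. Mbnl3, a splicing factor of the muscleblind family, was at 3.13, 1.79 and 5.11 CPM against 0.711 and 0.648 CPM, and Gulp1, an adaptor protein of engulfment, at 2.12, 3.24 and 1.34 CPM against 0.437 and 0.432 CPM. Ttc34, which overlaps Gm13112 on the other strand, was at 1.74, 1.25 and 2.2 CPM against 0.547 and 0.144 CPM. Ccdc18 was at 1.27, 4.07 and 0.0 CPM against 0.109 and 0.216 CPM, so that the genotypes overlapped.

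Immediate early genes are switched on in neurons within minutes of activity or stress. Of 29 tested, 10 had an unadjusted p under 0.05 and a higher level in Dot1l(fl/fl), 0 had a lower level and 19 passed in neither direction, against 4.24% higher over all genes. Dot1l(fl/fl) lay above every Dot1l(+/+) library for 11 of the 29, against 12.1% of all genes. Their median log2 fold change was 0.25, against 0.00 for all genes. With the length and GC offset it was 0.23, and 8 were higher, against 3.01% of all genes. Btg2, an antiproliferative gene, was at 81.6, 80.2 and 66.9 CPM in Dot1l(+/+) and at 107.8 and 145.0 CPM in Dot1l(fl/fl), which gave 0.73 ± 0.14 (SE) as log2 fold change (edgeR, Benjamini-Hochberg adjusted p = 0.0985). Dusp1, a phosphatase of MAP kinases that overlaps Ergic1 on the other strand, was at 108.1, 128.2 and 94.6 CPM against 161.4 and 165.5 CPM, a log2 fold change of 0.57 ± 0.12. Atf3, a stress-induced factor, was at 11.7, 7.57 and 6.11 CPM against 16.1 and 18.6 CPM. Fos, the classic activity marker, was at 220.9, 238.8 and 192.1 CPM against 280.2 and 271.0 CPM. For these 4 genes the genotypes did not overlap, which the choice of genes required for Btg2 and Dusp1. In each of the 4, Dot1l(+/+) 3 was the lowest library. The median over the list, relative to the Dot1l(+/+) mean, was 0.09, 0.14 and -0.20 in Dot1l(+/+) 1 to 3 and 0.20 and 0.35 in Dot1l(fl/fl). The number higher was 5 without Dot1l(+/+) 3.

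**Figure D2:**
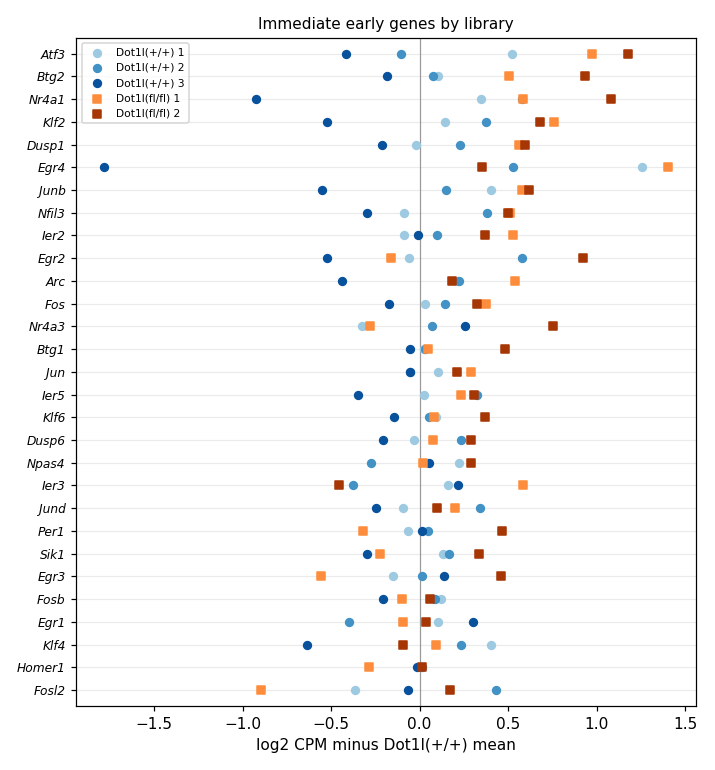
Level of each of the 29 immediate early genes in each of the 5 libraries, as log2 CPM minus the mean of the Dot1l(+/+) libraries (circles, Dot1l(+/+); squares, Dot1l(fl/fl)), ordered by fitted fold change. Atf3, Btg2, Dusp1 and Fos show both Dot1l(fl/fl) libraries above all Dot1l(+/+) libraries, and Dot1l(+/+) 3 is the lowest library for each of these 4.

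The 250 bases before the RefSeq start of Btg2, Dusp1 and Ppp1r15a are shown because all 3 genes were higher and each window holds TGACGTCA, the palindromic cAMP response element, which reads the same on both strands and is in capitals. The windows are on GRCm38.p6, lie on the minus strand at chr1:134079156-134079405, chr17:26508473-26508722 and chr7:45526269-45526518, and are written in the direction of transcription.
Btg2: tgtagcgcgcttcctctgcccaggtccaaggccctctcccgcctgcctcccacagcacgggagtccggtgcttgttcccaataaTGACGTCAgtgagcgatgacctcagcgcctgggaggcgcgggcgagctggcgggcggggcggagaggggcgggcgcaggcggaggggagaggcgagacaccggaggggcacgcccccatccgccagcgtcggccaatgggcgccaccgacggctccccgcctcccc
Dusp1: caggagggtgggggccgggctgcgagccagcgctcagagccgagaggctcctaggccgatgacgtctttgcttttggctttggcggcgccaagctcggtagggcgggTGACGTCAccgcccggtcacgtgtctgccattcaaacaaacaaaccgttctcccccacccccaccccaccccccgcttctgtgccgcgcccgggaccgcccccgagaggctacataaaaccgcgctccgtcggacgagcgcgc
Ppp1r15a: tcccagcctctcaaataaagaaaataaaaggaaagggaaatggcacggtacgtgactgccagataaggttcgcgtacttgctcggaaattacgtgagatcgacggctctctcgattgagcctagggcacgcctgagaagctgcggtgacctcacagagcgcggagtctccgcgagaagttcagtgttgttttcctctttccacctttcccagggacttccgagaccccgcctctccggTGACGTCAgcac
The element begins 166, 143 and 12 bases before the start. It was found in 1.55% of all 32851 windows of this length and in 2.94% of the 11493 tested genes with a window. Among genes at an unadjusted p under 0.05 it was in 29 of 508 higher genes (5.71%) and in 16 of 625 lower genes (2.56%). Of 24 immediate early genes with a window it was in 2, Btg2 and Dusp1. These are matches of letters, and the search was chosen after the levels were seen.

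The ATF4 and endoplasmic reticulum stress genes included Ppp1r15a, which encodes the subunit that brings a phosphatase to eIF2-alpha. Of 42 tested, 8 were higher (19%, against 4.24% of all genes) and 1 was lower at an unadjusted p under 0.05, with a median log2 fold change of 0.14. With the offset 2 were higher, against 3.01% of all genes, and the median was 0.07. Ppp1r15a was at 37.8, 43.1 and 28.1 CPM in Dot1l(+/+) and at 55.2 and 56.5 CPM in Dot1l(fl/fl), which gave 0.62 ± 0.17 (SE) as log2 fold change (edgeR, Benjamini-Hochberg adjusted p = 0.248). Herpud1, a membrane protein of the degradation of misfolded proteins, was at 36.9, 37.7 and 35.5 CPM against 45.1 and 56.3 CPM. Ern1, the stress sensor IRE1-alpha, was the lower member, at 25.3, 23.5 and 25.3 CPM against 13 and 20 CPM. The number higher was 4 without Dot1l(+/+) 3 and also without Dot1l(fl/fl) 1, and 5 without Dot1l(fl/fl) 2.

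Homeobox genes were lower where they passed. Of 74 tested, 14 were lower at an unadjusted p under 0.05 and 0 were higher, against 5.03% lower over all genes, and 20 had both Dot1l(fl/fl) libraries below every Dot1l(+/+) library, against 11.6%. The median log2 fold change was -0.17, and -0.14 with the offset, under which 12 were lower, against 3.71% of all genes. En2 and Zfhx3 were among the genes of smallest p in the list, and so was Pou3f3, a POU factor of neuronal progenitors and young neurons, at 126.8, 129.2 and 123.7 CPM in Dot1l(+/+) and 76.0 and 104.4 CPM in Dot1l(fl/fl). The list median was -0.03, -0.07 and 0.11 in Dot1l(+/+) 1 to 3 and -0.31 and -0.09 in Dot1l(fl/fl). Dot1l(fl/fl) 1 stood well below the controls for the list as a whole, while Dot1l(fl/fl) 2 lay just under the lowest of them. Leaving out Dot1l(fl/fl) 2 gave a median of -0.37, leaving out Dot1l(+/+) 2 gave -0.28, and leaving out Dot1l(fl/fl) 1 gave -0.10. The number lower was 8 without Dot1l(+/+) 3.

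Genes of dopamine metabolism and identity had more members lower than higher among those that passed. Of 41 tested, 19 were lower at an unadjusted p under 0.05 (46.3%, against 5.03% of all genes). Of the rest 2 were higher (Calb2 and Sncg) and 20 passed in neither direction. For 22 both Dot1l(fl/fl) libraries lay below all controls, against 11.6% of all genes. The list shares members with the homeobox list, among them En1, En2, Otx2 and Lmx1a, which count as lower in both. The median log2 fold change was -0.22, and -0.20 with the offset, under which 18 were lower, against 3.71% of all genes. Nr4a2, the orphan receptor that DA neurons need to form, was at 700.3, 687.8 and 742.1 CPM in Dot1l(+/+) and at 524.0 and 549.3 CPM in Dot1l(fl/fl), which gave -0.40 ± 0.09 (SE) as log2 fold change (edgeR, Benjamini-Hochberg adjusted p = 0.16). Th, tyrosine hydroxylase, was at 1047.4, 951.7 and 974.6 CPM against 860.3 and 649.5 CPM. Chrna6, a nicotinic receptor subunit of DA neurons, was at 497.2, 405.8 and 479.3 CPM against 390.6 and 304.5 CPM. For Th and Chrna6 the genotypes did not overlap, and Dot1l(fl/fl) 2 was the lowest. The list median was 0.05, -0.05 and -0.02 in the 3 controls and -0.16 and -0.22 in Dot1l(fl/fl). The number lower was 11 without Dot1l(fl/fl) 2. The study reported Th, Slc18a2, Nr4a2, Slc6a3 and Pitx3, among others, as lower by qPCR in dissected midbrains of older Dot1l(fl/fl) mice. In the sorted embryonic neurons here, Th, Slc18a2 and Nr4a2 were lower. Slc6a3 and Pitx3 were not, with log2 fold changes of 0.13 and -0.01. The list was chosen with earlier results of these data known, so it is not independent evidence of a direction.

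**Figure D3:**
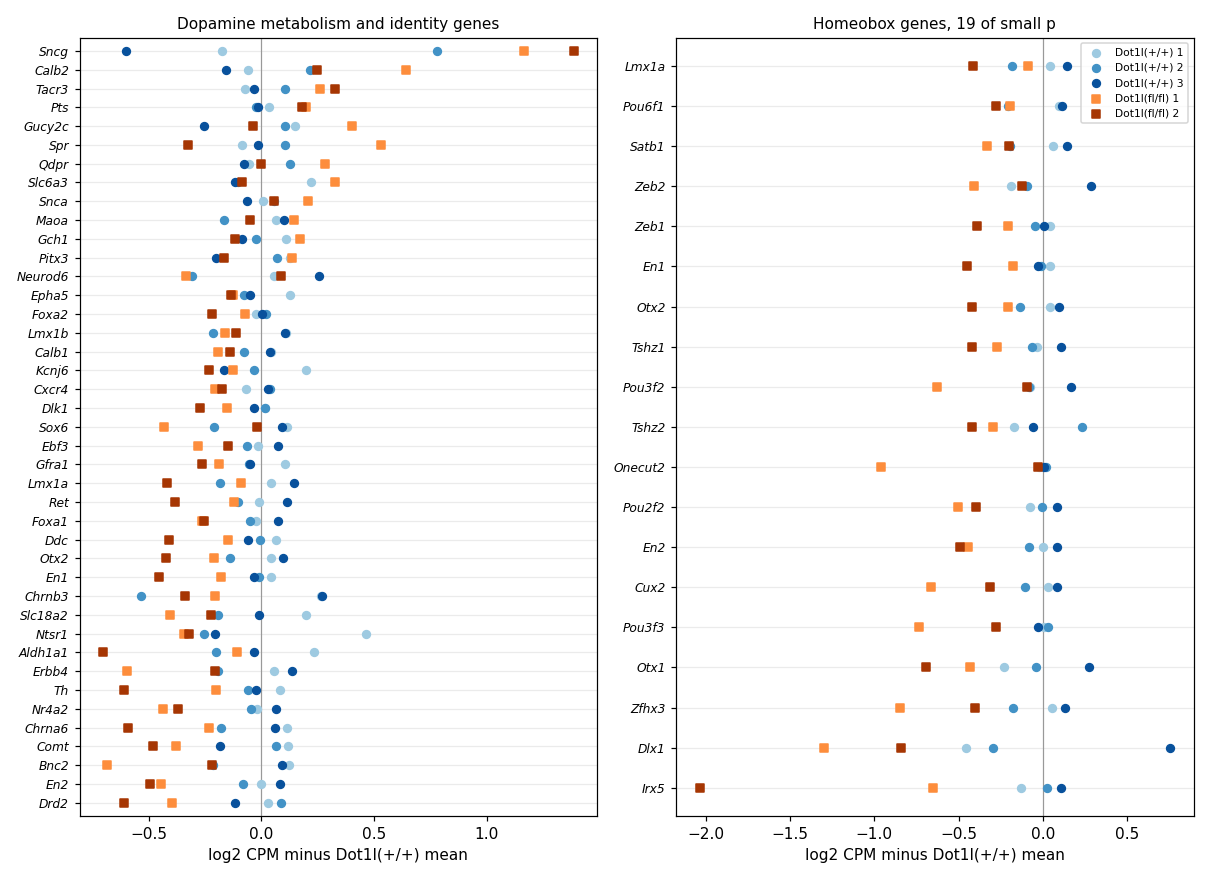
Level of the 41 dopamine metabolism and identity genes (left) and of 19 homeobox genes with a small p (right) in each of the 5 libraries, as log2 CPM minus the mean of the Dot1l(+/+) libraries (circles, Dot1l(+/+); squares, Dot1l(fl/fl)). En2 and Nr4a2 show both Dot1l(fl/fl) libraries close together below the controls, while Pou3f3 and Zfhx3 show Dot1l(fl/fl) 1 lower than Dot1l(fl/fl) 2, and Slc6a3 and Pitx3 overlap.

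Exon length moved with the differences across all genes. The median log2 fold change was 0.16 for the 725 genes with under 0.5 kb of exon, 0.13 for the 2357 genes of 1 to 2 kb, 0.06 for the 5198 genes of 2 to 4 kb, -0.03 for the 5877 genes of 4 to 8 kb and -0.13 for the 2701 genes of 8 kb or more. At an unadjusted p under 0.05, 4.24% of all genes were higher and 5.03% lower. Of the 725 genes of the shortest class 36 (4.97%) were higher and 4 (0.552%) lower. The share higher was thus near that of all genes, and the share lower was smaller. Of the 2701 genes of the longest class 36 (1.33%) were higher and 426 lower. The libraries barely divided by genotype in the shift with exon length. The median of genes with 8 kb or more of exon minus that of genes under 2 kb was 0.04, -0.19 and 0.14 in Dot1l(+/+) 1 to 3 and -0.38 and -0.20 in Dot1l(fl/fl) 1 and 2, so that Dot1l(+/+) 2 lay beside Dot1l(fl/fl) 2. For the span of the gene on the genome, 100 kb or more against under 10 kb, the difference of medians was -0.16, and -0.03 with the offset, and by library it was 0.03, -0.16 and 0.11 in Dot1l(+/+) against -0.23 and -0.14 in Dot1l(fl/fl), which overlapped. Within genes with 2 to 4 kb of exon, the median was 0.06 for spans under 30 kb and 0.08 for spans of 100 kb or more. Within genes with 8 kb or more of exon it was -0.11 and -0.15. Among genes with under 2 kb of exon, however, it was 0.13 for spans under 30 kb and 0.02 for the 39 genes of 100 kb or more. The part of exon length in the results below and above was not tested beyond the offset.

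**Figure D4:**
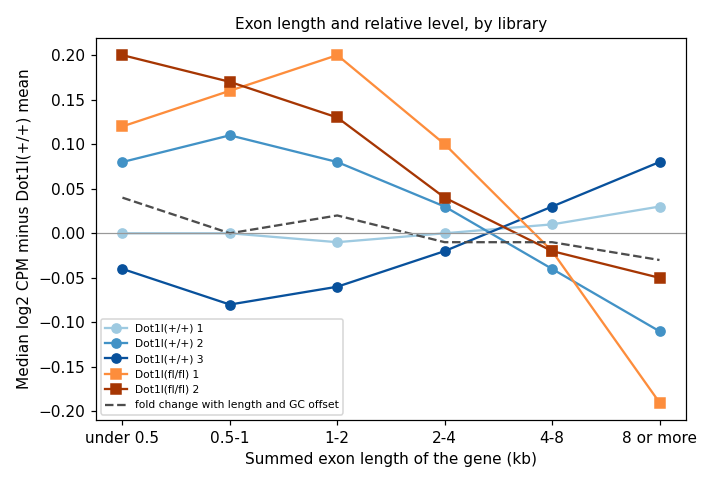
Median log2 CPM minus the Dot1l(+/+) mean (vertical) of genes grouped by summed exon length in kb (horizontal), 1 line for each of the 5 libraries (circles, Dot1l(+/+); squares, Dot1l(fl/fl)), and the median fitted log2 fold change with the length and GC offset (dashed). Both Dot1l(fl/fl) libraries lie lower for long than for short genes, at -0.19 and -0.05 for 8 kb or more, and Dot1l(+/+) 2, at -0.11 there, has the same direction.

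Chromatin remodellers, which move or read nucleosomes, had a median exon length of 8.72 kb. Of 43 tested, 14 were lower (32.6%, against 5.03% of all genes) and 0 higher, with a median log2 fold change of -0.19. With the offset 8 were lower, against 3.71% of all genes, and the median was -0.08. Arid1a, a subunit of BAF complexes, was at 238.0, 225.3 and 277.4 CPM in Dot1l(+/+) and at 154.5 and 199.5 CPM in Dot1l(fl/fl), which gave -0.48 ± 0.12 (SE) as log2 fold change (edgeR, Benjamini-Hochberg adjusted p = 0.209) and -0.31 without Dot1l(fl/fl) 1. Chd7, the remodeller affected in CHARGE syndrome, was at 125.5, 110.2 and 152.4 CPM against 84.5 and 98.8 CPM, and Chd5, a neuronal remodeller, at 437.6, 339.1 and 436.9 CPM against 303.6 and 308.3 CPM. The list median in Dot1l(+/+) 2 was -0.12, next to -0.14 in Dot1l(fl/fl) 2. Without Dot1l(+/+) 3, and also without Dot1l(fl/fl) 1, 8 were lower.

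As fitted, other writers and erasers of histone methylation had a larger share of lower members than all genes. With the offset the number lower fell in both lists, and over all genes it fell from 904 to 667 (3.71%). For the demethylases, with 1 of 23 lower, the share with the offset was near that of all genes. The share lower was 21.3% of methyltransferases and 26.1% of demethylases, against 5.03% of all genes. Of 47 lysine methyltransferases tested, 10 were lower and 1 higher, with a median of -0.12, and with the offset 4 were lower and the median was -0.05. Leaving out Dot1l(+/+) 3 gave a median of -0.07, and leaving out Dot1l(+/+) 2 or Dot1l(fl/fl) 2 gave -0.20, while 2 were lower without Dot1l(+/+) 3, 3 without Dot1l(fl/fl) 1 and 6 without Dot1l(+/+) 1. Prdm8, a PR-domain repressor, was at 30.8, 42.8 and 30.5 CPM in Dot1l(+/+) and at 24.5 and 17.7 CPM in Dot1l(fl/fl). Kmt2e, a large SET-domain protein that overlaps Srpk2 on the other strand, was at 224.2, 187.2 and 220.6 CPM against 146.9 and 173.7 CPM. Kmt2a, the methyltransferase rearranged in mixed lineage leukaemia, was at 191.4, 159.7 and 227.9 CPM against 113.0 and 173.4 CPM, so that the genotypes overlapped. Of 23 histone demethylases, 6 were lower and 0 higher, with a median of -0.05. With the offset 1 was lower, and without Dot1l(fl/fl) 1 it was 3. The median ran from -0.03 without Dot1l(fl/fl) 1 to -0.11, -0.13 and -0.20 without Dot1l(+/+) 1, Dot1l(+/+) 2 and Dot1l(fl/fl) 2. The partners of DOT1L at elongating polymerase, 31 genes tested, had a median of -0.06, with 2 lower and 0 higher, and 1 lower with the offset. The median was -0.09 without Dot1l(fl/fl) 1 and -0.04 without Dot1l(fl/fl) 2. The lower genes were Supt6, a histone chaperone that overlaps Sdf2 on the other strand, at 162.2, 134.5 and 181.6 CPM against 129.4 and 133.3 CPM, and Rtf1, a subunit of the PAF1 complex, at 137.1, 147.5 and 134.3 CPM against 119.4 and 115.8 CPM. This share was near the background, and the number lower ran from 0 without Dot1l(+/+) 1 and 1 without Dot1l(+/+) 3 to 4 without Dot1l(+/+) 2 and 6 without Dot1l(fl/fl) 2.

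Zfp zinc finger genes had a median log2 fold change of -0.09 over 341 tested, and -0.10 with the offset, -0.03 without Dot1l(fl/fl) 1 and -0.17 without Dot1l(fl/fl) 2. Of these 21 were lower, also with the offset, and 4 higher. The share lower was 6.16%, near the 5.03% of all genes. For 55 both Dot1l(fl/fl) libraries lay below all controls, against 11.6% of all genes. With 1 library left out 46 were lower without Dot1l(fl/fl) 2 and 13 without Dot1l(+/+) 3, and the list median was -0.14 in Dot1l(fl/fl) 1 but -0.02 in Dot1l(fl/fl) 2. Zfp445, a KRAB zinc finger protein of imprinted regions, was at 114.7, 100.7 and 123.8 CPM in Dot1l(+/+) and at 72.6 and 86.0 CPM in Dot1l(fl/fl).

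Genes of cell contact and axon guidance were lower where they passed, with few exceptions. Of 101 classical cadherins, protocadherins and their partners tested, 19 were lower (18.8%, against 5.03% of all genes) and 0 higher. Their median log2 fold change was -0.19, and -0.12 without Dot1l(+/+) 3. With the offset 15 were lower, against 3.71% of all genes, and the median was -0.15. Celsr2, a cadherin of planar cell polarity, was at 219.9, 168.7 and 227.8 CPM in Dot1l(+/+) and at 146.3 and 156.9 CPM in Dot1l(fl/fl). Ctnnd2, the neuronal delta-catenin that binds cadherins, was at 267.3, 245.8 and 283.2 CPM against 216.6 and 204.4 CPM. Clustered protocadherins share exons, so that how their reads were divided is uncertain. Without Dot1l(+/+) 1, Dot1l(+/+) 3 and Dot1l(fl/fl) 1 in turn, 12, 10 and 11 were lower.

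Of 31 semaphorins, plexins and neuropilins, 8 were lower (25.8%, against 5.03% of all genes) and 1 higher. Their median was -0.23, and -0.11 without Dot1l(+/+) 3. With the offset 4 were lower, against 3.71% of all genes, and the median was -0.14. Nrp1, the co-receptor of class 3 semaphorins, was at 119.4, 90.7 and 104.9 CPM in Dot1l(+/+) and at 82.8 and 72.5 CPM in Dot1l(fl/fl). Plxna4, their signalling receptor, was at 314.4, 232.0 and 344.3 CPM against 212.4 and 241.9 CPM, so that Dot1l(+/+) 2 lay among the Dot1l(fl/fl) libraries. Of 45 netrin, Slit and repulsive guidance genes, 9 were lower (20%, against 5.03% of all genes) and 0 higher. Their median was -0.16, with -0.06 without Dot1l(+/+) 3 and -0.23 without Dot1l(+/+) 2. With the offset 4 were lower, against 3.71% of all genes, and the median was -0.09. The smallest p belonged to Srgap1, a Slit-Robo GTPase-activating protein, at 260.8, 230.8 and 285.6 CPM against 188.5 and 188.8 CPM. Without Dot1l(+/+) 3 the numbers lower were 3 and 4 in these lists, and the netrin and Slit number was 5 without Dot1l(+/+) 1 and 16 without Dot1l(+/+) 2.

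Receptors for trophic factors, 52 tested, had 11 lower (21.2%, against 5.03% of all genes) and 0 higher. Their median was -0.14, and -0.06 without Dot1l(+/+) 3. With the offset 9 were lower, against 3.71% of all genes, and the median was -0.07. Ddr1, a collagen receptor kinase, was at 123.1, 113.9 and 151.7 CPM in Dot1l(+/+) and at 98.3 and 95.2 CPM in Dot1l(fl/fl). Erbb4, the neuregulin receptor, was at 325.3, 274.0 and 343.4 CPM against 207.0 and 271.3 CPM. For Erbb4, Dot1l(fl/fl) 2 lay close under the lowest control. Of these receptors 4 were lower without Dot1l(+/+) 3 and 5 without Dot1l(fl/fl) 1. Of 80 potassium channel genes, the Kctd family included, 11 were lower (13.8%, against 5.03% of all genes) and 1 higher. Their median was -0.13, and -0.25 without Dot1l(fl/fl) 1. With the offset 5 were lower, against 3.71% of all genes, and the median was -0.08. Kcnk9, an acid-sensitive leak channel, was at 108.8, 93.9 and 137.3 CPM against 61.7 and 92.2 CPM. Of the channels 5 were lower without Dot1l(+/+) 1 and 6 without Dot1l(fl/fl) 1.

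Spectrins, ankyrins and plakins are giant linkers of membrane and filaments with a median exon length of 17.3 kb. Of 18 tested, 10 were lower (55.6%, against 5.03% of all genes) and 0 higher. Their median log2 fold change was -0.26, and -0.16 without Dot1l(+/+) 3. With the offset 1 was lower, against 3.71% of all genes, and the median was -0.07. The list median in Dot1l(+/+) 2 was -0.26, against -0.36 and -0.25 in Dot1l(fl/fl). Plec, the cytolinker plectin, was at 109.3, 90.0 and 119.2 CPM in Dot1l(+/+) and at 68.3 and 76.5 CPM in Dot1l(fl/fl). Of 39 microtubule-associated genes, 10 were lower (25.6%, against 5.03% of all genes) and 1 higher, with a median of -0.15. With the offset 5 were lower, against 3.71% of all genes, and the median was -0.05. Nav2, a microtubule-binding protein of axon growth, was at 53.6, 48.3 and 60.6 CPM against 30.9 and 40.5 CPM, and Map1b, a microtubule-associated protein of growing axons, was at 3544.7, 2852.6 and 3831.4 CPM against 2619.2 and 2832.2 CPM. The higher member was the short Stmn3, a stathmin that binds tubulin, at 703.1, 842.7 and 659.0 CPM against 974.5 and 849.1 CPM. Among intermediate filaments, Ina was lower while Nefl, the light neurofilament, which overlaps Nefm on the other strand, was at 160.8, 193.3 and 181.4 CPM against 249.7 and 213.0 CPM. Of the giant linkers 3 were lower without Dot1l(+/+) 3 and 5 without Dot1l(+/+) 1, and of the microtubule-associated genes 6 without Dot1l(+/+) 3.

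Among genes of protein quality control, the median exon length was 2.89 kb for the proteasome and 9.71 kb for the HECT ligases. Of 49 proteasome subunits and their helpers, 11 were higher (22.4%, against 4.24% of all genes) and 1 lower. Their median log2 fold change was 0.19, and 0.13 without Dot1l(fl/fl) 1. With the offset 3 were higher, against 3.01% of all genes, and the median was 0.10. Shfm1, a small subunit of the proteasome lid, was at 43.3, 39.1 and 45.7 CPM in Dot1l(+/+) and at 58.9 and 57.7 CPM in Dot1l(fl/fl), and Psmg3, an assembly chaperone, at 9.19, 12.1 and 10.4 CPM against 17.4 and 17.1 CPM. Of 19 chaperonin and prefoldin genes, 6 were higher (31.6%, against 4.24% of all genes) and 0 lower. Their median was 0.17, with 0.28 without Dot1l(+/+) 2 and 0.12 without Dot1l(+/+) 3. With the offset 2 were higher, against 3.01% of all genes, and the median was 0.09. Tbca, a tubulin folding cofactor, was at 74.7, 81.9 and 64.6 CPM against 106.1 and 93.8 CPM. Of 25 ubiquitin ligases of the HECT type, 6 were lower (24%, against 5.03% of all genes) and 0 higher, with a median of -0.16. With the offset 2 were lower, against 3.71% of all genes, and the median was -0.04. Herc2, a giant ligase of DNA repair, was at 342.4, 300.2 and 426.6 CPM against 236.5 and 271.4 CPM. The proteasome number was 3 without Dot1l(+/+) 1 and also without Dot1l(+/+) 3, 7 without Dot1l(fl/fl) 1 and 19 without Dot1l(+/+) 2. The chaperonin number was 1 without Dot1l(+/+) 1, 2 without Dot1l(+/+) 3, 3 without Dot1l(fl/fl) 1 and 13 without Dot1l(+/+) 2, and the ligase number 3 without Dot1l(+/+) 3.

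Antioxidant genes had 13 higher (23.6%, against 4.24% of all genes) and 0 lower of 55 tested. Their median was 0.17, with 0.10 without Dot1l(fl/fl) 1 and 0.26 without Dot1l(+/+) 2. With the offset 9 were higher, against 3.01% of all genes, and the median was 0.10. Sod1, the copper-zinc superoxide dismutase, which overlaps Scaf4 on the other strand, was at 51.6, 59.9 and 46.0 CPM in Dot1l(+/+) and at 76.9 and 75.7 CPM in Dot1l(fl/fl), which gave 0.54 ± 0.13 (SE) as log2 fold change (edgeR, Benjamini-Hochberg adjusted p = 0.209). Txnip, the inhibitor of thioredoxin, whose role is the reverse of the list's name, was at 16.6, 16.4 and 15.5 CPM against 24.9 and 24.0 CPM. Hmox2, the constitutive heme oxygenase, which overlaps Cdip1 on the other strand, was at 53.6, 59.3 and 44.8 CPM against 86.0 and 61.8 CPM. The number higher was 6 without Dot1l(fl/fl) 1 and 8 without Dot1l(+/+) 3. Of 25 glycolysis genes, 4 were higher (16%, against 4.24% of all genes) and 0 lower, with a median of 0.12. It was 0.05 without Dot1l(fl/fl) 1, 0.07 without Dot1l(+/+) 3 and 0.26 without Dot1l(fl/fl) 2. With the offset 5 were higher, against 3.01% of all genes, and the median was 0.14. Tpi1, triose phosphate isomerase, was at 141.4, 145.6 and 117.1 CPM against 187.9 and 149.5 CPM, and Aldoa, an aldolase that overlaps Fam57b on the other strand, at 243.5, 263.7 and 227.1 CPM against 337.9 and 263.8 CPM. For both, Dot1l(fl/fl) 1 was the highest library and Dot1l(fl/fl) 2 lay next to Dot1l(+/+) 2. The number of glycolysis genes higher was 0 without Dot1l(fl/fl) 1, 1 without Dot1l(+/+) 3 and 7 without Dot1l(fl/fl) 2.

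Genes of RNA handling gave 3 lists. Of 93 SR proteins, hnRNPs and neuronal splicing factors, 14 were lower (15.1%, against 5.03% of all genes) and 2 higher, with a median of -0.09. With the offset 10 were lower, against 3.71% of all genes, and the median was -0.08. The list median was -0.14 in Dot1l(fl/fl) 1 and 0.01 in Dot1l(fl/fl) 2, and without Dot1l(fl/fl) 1 the median log2 fold change was -0.00 with 7 genes higher. It was -0.06 without Dot1l(+/+) 1 and also without Dot1l(+/+) 3. Nova2, a neuronal splicing regulator, was at 248.2, 239.7 and 251.1 CPM in Dot1l(+/+) and at 182.3 and 186.7 CPM in Dot1l(fl/fl), which gave -0.42 ± 0.10 (SE) as log2 fold change (edgeR, Benjamini-Hochberg adjusted p = 0.206). Srrm4, the activator of neuronal microexons, was at 91.1, 87.6 and 105.5 CPM against 57.9 and 78.3 CPM. Of 35 small nuclear ribonucleoproteins and LSm proteins, 6 were higher (17.1%, against 4.24% of all genes) and 1 lower. Their median was 0.18, with 0.10 without Dot1l(fl/fl) 1 and 0.11 without Dot1l(+/+) 3. With the offset 3 were higher, against 3.01% of all genes, and the median was 0.08. Snrpd1, an Sm core protein, was at 43.5, 54.3 and 46.0 CPM against 64.0 and 64.1 CPM. Of 49 translation initiation factors, 10 were higher (20.4%, against 4.24% of all genes) and 2 lower, with a median of 0.16. With the offset 6 were higher, against 3.01% of all genes, and the median was 0.11. Eif2b4, a subunit of the exchange factor of eIF2, which overlaps Snx17 on the other strand, was at 54.3, 49.0 and 44.2 CPM against 67.9 and 60.7 CPM, and the large scaffold Eif4g3 was at 315.8, 304.3 and 331.5 CPM against 248.5 and 256.7 CPM. Of the splicing factors 23 were lower without Dot1l(fl/fl) 2 and 9 without Dot1l(+/+) 3. The snRNP and initiation numbers higher were 2 and 4 without Dot1l(+/+) 1 and also without Dot1l(+/+) 3, the snRNP number was 3 without Dot1l(fl/fl) 1, and the initiation number was 16 without Dot1l(+/+) 2.

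**Figure D5:**
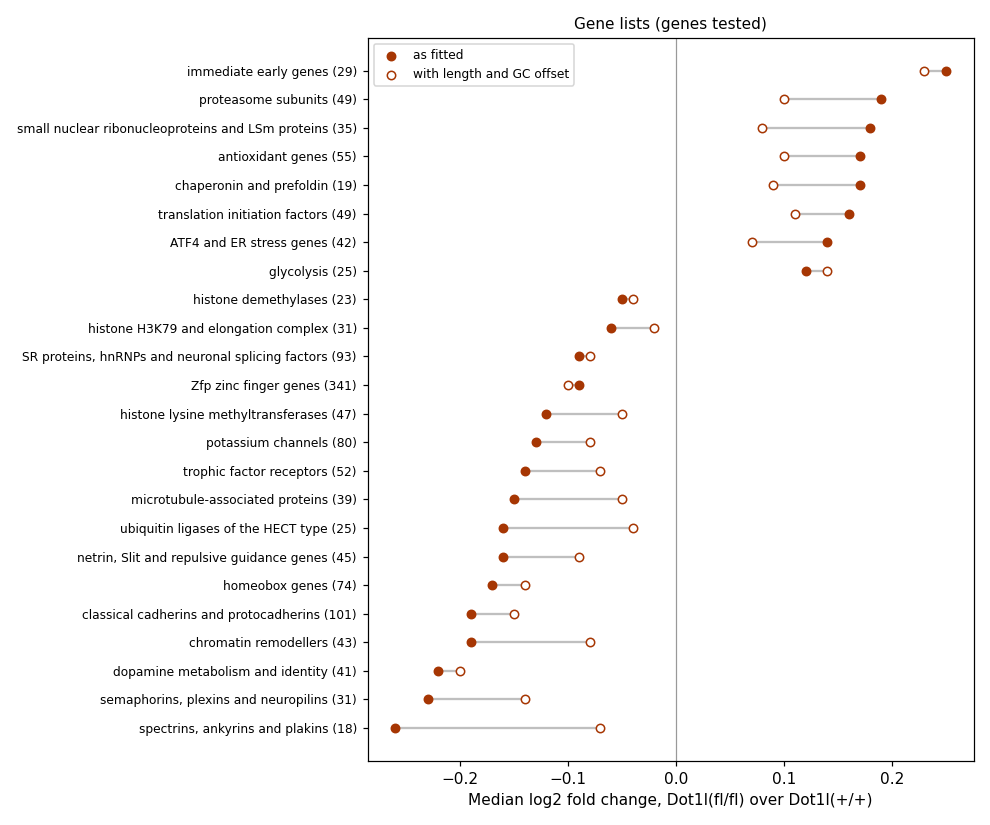
Median log2 fold change of Dot1l(fl/fl) over Dot1l(+/+) for 24 gene lists, with the number of genes tested in brackets, as fitted (filled) and after fitting exon length and GC content as an offset (open). Immediate early genes keep 0.23 of 0.25 and dopamine genes -0.20 of -0.22, while spectrins, ankyrins and plakins go from -0.26 to -0.07.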

How the data were processed

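RNA of sorted YFP-positive midbrain DA neurons was sequenced from libraries made with a directional kit. The authors deposited whole-number read counts for 47729 Ensembl genes in each library, not normalised. The submitters' processing notes name bcl2fastq 2.17, Trimmomatic 0.30, DESeq2 1.10.1 and GRCm38.p4; the counter, its strand setting and its treatment of shared reads are not given in the sources used here, so that overlapping, antisense and near-identical genes are uncertain. The authors' 3 comparison tables hold mean signal, fold changes and p-values, of which none was used; their ID and Gene columns gave 44848 symbols. Coordinates and lengths were taken from GENCODE on GRCm38 for the 47224 genes (98.9%) it holds. Promoter windows came from RefSeq.

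Groups were taken from sample titles. Counts were tested with edgeR 4.0.16 under R 4.3.3 (TMM, filterByExpr, quasi-likelihood F test, Benjamini-Hochberg over 17988 genes). All 3 genotypes entered the fit, Dot1l(fl/+) to estimate the spread. Levels are CPM after TMM scaling, and log2 levels had a prior count of 2 added. Intervals and floors cover counting error only. The study matched pools by litter, but the labels do not say that replicate numbers follow this. Gene lists (60) were matched by symbol and described by counts at an unadjusted p under 0.05 and by medians, with no set test. Named genes were Dot1l, Th, Slc6a3 and Pitx3; the 15 higher and 15 lower with the smallest p among genes with a symbol, a mean of at least 5 CPM and genotypes that do not overlap; the 5 of largest fold each way at an unadjusted p under 0.05 and a mean of at least 1 CPM; and up to 4 members of each list with the smallest p. Some of these genes are not reported here. Members and lists were chosen with earlier results of these data known. Alternatives were RLE and upper quartile factors, other filters, DESeq2 1.42.0, 2 genotypes alone, a replicate block, a length and GC offset (splines with 4 degrees of freedom), the chromosome Y share, thinning to 13616922 counts, and each library left out. Scripts were tested on simulated data.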

Additional observations from a re-analysis of the deposited data

How the results depend on the processing

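The number of genes past an adjusted p of 0.05, 0 as reported by edgeR with 1667 at an unadjusted p under 0.05, was also 0 after RLE scaling, upper quartile scaling, the length and GC offset, the chromosome Y covariate and thinning, and with 2 genotypes alone. It was 106 without a filter, 2 with a mean count of at least 50, 214 by DESeq2 on 3 genotypes and 85 by DESeq2 on 2. Leaving out 1 library gave between 0 and 75 genes; it was 75 without Dot1l(+/+) 2, 50 without Dot1l(fl/fl) 2, 4 without Dot1l(fl/fl) 1 and 0 for each of the others. Genes higher at an unadjusted p under 0.05 ranged from 503 without Dot1l(+/+) 3 to 1110 without Dot1l(+/+) 2, and genes lower from 536 to 1288 for the same libraries. The difference in median between long and short spans, -0.165, ranged from -0.251 to -0.102 over the libraries left out, and was -0.026 under the offset and -0.027 under offset plus block, since the offset is fitted to length. The cause of the other shifts was not tested.

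Same-numbered libraries of different genotypes did not deviate together (r between -0.031 and 0.045, against -0.051 to 0.045 for other pairs). The 2 Dot1l(fl/fl) libraries deviate from their own mean by equal and opposite amounts, so that their r values mirror each other. The check therefore cannot exclude a litter match. The numbers were not taken to mark the litter-matched pools, since the labels do not say that they do. With the replicate block 6 genes passed, and with the block and the offset 17 passed, with 426 genes higher and 789 lower at an unadjusted p under 0.05.

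For the 24 lists described, chosen with these values known, 442 of 480 medians under the alternatives moved by less than the spread between the Dot1l(+/+) libraries, 38 by more, and 0 changed sign. Of the 36 other lists, 19 had a median that changed sign under some alternative, 55 of 720 medians in all. The floor of 3 counts reached 0.22 CPM in the shallowest library, which limits what can be seen of low genes.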
